A study of Homo sapiens with 28 samples.

Results

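Coding exons were examined in 10 lists of broad peaks from ChIP-seq, chromatin immunoprecipitation followed by sequencing, in U2OS osteosarcoma cells. Exon peaks were those whose centre lay in a coding segment, the part of an exon that is translated, of the canonical transcript of an autosomal protein-coding gene, more than 1 kb from the start of any protein-coding gene and outside ASH1L, the gene that the CTD construct is derived from. Each list held 500000 peaks, and between 3335 and 8990 of them were exon peaks, which is 62392 of 5000000 over all lists. The comparison was the intron sequence of the same transcripts 200 to 1000 bp from a coding segment, free of annotated exons. It held 229668 peak centres.

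The cells were wild-type U2OS for H3K36me2, with 2 unirradiated replicates and 2 that had recovered for 3 h from a UV-C dose of 20 J per m2. For the CTD they were ASH1L-/- U2OS cells transfected with the Flag-tagged CTD, the C-terminal domain of ASH1L, with 3 replicates without UV and 3 at 3 h. The CTD is a transfected fragment in cells without the full protein, and empty-vector ChIP libraries from the same knockout cells were its control, while chromatin inputs were the control of H3K36me2. The lists give no depth and no expression values. Since every list stops at the same number of peaks, a density is relative to the rest of that list, and a lower value in exons means that more of the 500000 peaks lay elsewhere. The weakest peaks kept had −log10 p-values of 1.22 to 1.42. A value of 2 was reached by 40.2% to 43.1% of H3K36me2 exon peaks and by 6.22% to 9.13% of CTD exon peaks. A −log10 q limit of 1.3 left no CTD exon to intron ratio. Replicates are separate samples by their labels, and p-values measure the spread between these samples. The replicates shared at most 2 identical intervals in a pair, so none was a copy of another.

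A pair of CTD lists stood apart from the other 4, replicate 1 without UV and replicate 3 at 3 h. They had the most exon peaks (8624 and 8990, against 6922 to 7558), and the median GC content around their exon peaks was 54.0% and 54.4% against 49.2% to 51.4%. Over 2740 bins of 1 Mb their deviations from the means of their own conditions correlated at r = 0.749, although they belong to different conditions and carry different replicate numbers. The cause was not tested. CTD results are given with and without them where the call depends on them.

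H3K36me2, the dimethylated form of lysine 36 of histone H3, is written by methyltransferases of the NSD family and by ASH1L and is spread over intergenic regions and gene bodies. Further into transcribed genes SETD2 converts it to the trimethylated form, which is known to be higher over exons than over introns. Coding exons are richer in G and C than introns, and nucleosomes sit on them more often. The recovery of DNA in sequencing libraries also varies with GC content, so exon and intron were compared both directly and at equal GC content. The eligible coding segments covered 29.6 Mbp with a GC content of 51.5%, and the intron 142 Mbp with a GC content of 42.5%.

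The coding segments of 2 genes are shown with 20 intron bases on each side and, below each, the partner window, a stretch of the same length centred 600 bp from the segment inside the intron. Capitals mark coding bases. UROC1, which encodes the urocanase of histidine breakdown, had an H3K36me2 peak in all 4 lists. ADH7, an alcohol dehydrogenase, had one at 3 h and not without UV. All sequences are read 5′ to 3′ on the strand of the gene in hg38.
UROC1 coding segment 3 (chr3:126509565-126509698, minus strand): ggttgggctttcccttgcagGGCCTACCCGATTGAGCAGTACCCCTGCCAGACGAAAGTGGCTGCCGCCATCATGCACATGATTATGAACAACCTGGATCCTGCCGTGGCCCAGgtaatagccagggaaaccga
UROC1 partner window (chr3:126508938-126509031): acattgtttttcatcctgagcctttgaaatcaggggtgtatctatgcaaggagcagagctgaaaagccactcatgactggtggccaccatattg
ADH7 coding segment 7 (chr4:99418966-99419141, minus strand): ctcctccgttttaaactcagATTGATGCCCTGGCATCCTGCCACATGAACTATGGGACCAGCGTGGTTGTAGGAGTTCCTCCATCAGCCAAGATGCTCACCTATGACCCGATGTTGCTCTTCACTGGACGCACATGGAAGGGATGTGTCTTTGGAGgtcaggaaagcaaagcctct
ADH7 partner window (chr4:99418318-99418453): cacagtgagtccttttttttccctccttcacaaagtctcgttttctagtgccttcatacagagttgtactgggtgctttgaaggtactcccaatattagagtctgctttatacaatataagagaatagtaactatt
The coding stretches had a GC content of 57.5% and 51.7% with their 20-base margins, and the partner windows 45.7% and 37.5%.

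Longer segments are shown by 300 bases around the median of their peak centres, all of them coding, with CpG dinucleotides in capitals. EEPD1, a nuclease-like protein linked to the restart of replication forks, and OR4N2, an olfactory receptor, had H3K36me2 peaks in all 4 lists. RAG1, a subunit of the V(D)J recombinase, had peaks in all 10 lists. SON, a splicing protein of nuclear speckles, had peaks in the 6 CTD lists and in no H3K36me2 list.
EEPD1 (chr7:36154700-36154999, plus strand): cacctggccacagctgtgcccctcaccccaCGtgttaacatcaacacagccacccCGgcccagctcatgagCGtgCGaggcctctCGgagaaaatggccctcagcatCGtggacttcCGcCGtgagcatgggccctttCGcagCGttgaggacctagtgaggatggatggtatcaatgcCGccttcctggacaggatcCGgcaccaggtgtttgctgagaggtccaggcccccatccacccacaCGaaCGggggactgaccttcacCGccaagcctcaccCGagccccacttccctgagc
OR4N2 (chr14:19827668-19827967, plus strand): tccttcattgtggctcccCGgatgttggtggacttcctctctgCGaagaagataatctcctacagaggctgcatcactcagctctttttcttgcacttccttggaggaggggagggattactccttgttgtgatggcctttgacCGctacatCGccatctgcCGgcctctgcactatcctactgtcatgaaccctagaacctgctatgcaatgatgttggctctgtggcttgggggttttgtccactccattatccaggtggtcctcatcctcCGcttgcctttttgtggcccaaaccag
RAG1 (chr11:36574884-36575183, plus strand): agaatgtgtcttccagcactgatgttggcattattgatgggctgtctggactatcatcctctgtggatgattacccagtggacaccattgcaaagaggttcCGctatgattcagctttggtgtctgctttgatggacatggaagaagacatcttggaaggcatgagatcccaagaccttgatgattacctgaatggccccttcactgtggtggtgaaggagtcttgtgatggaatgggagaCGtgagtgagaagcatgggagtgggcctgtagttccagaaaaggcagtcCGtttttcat
SON (chr21:33551942-33552241, plus strand): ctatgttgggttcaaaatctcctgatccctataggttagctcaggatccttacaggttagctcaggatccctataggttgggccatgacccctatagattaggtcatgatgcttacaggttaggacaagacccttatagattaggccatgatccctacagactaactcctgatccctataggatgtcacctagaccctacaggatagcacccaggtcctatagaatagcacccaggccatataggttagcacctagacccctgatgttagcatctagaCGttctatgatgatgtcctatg
Their GC contents were 63.0%, 52.3%, 48.0% and 46.3%, with 16, 6, 3 and 1 CpG dinucleotides.

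The first question was whether the mark and the protein were found more often on coding exons than on the introns around them. Without UV, H3K36me2 had 147 exon peaks per Mbp of coding sequence in replicate 1 and 162 in replicate 2, against 104 and 109 per Mbp of intron. At 3 h the values were 113 and 117 in exons against 94.6 and 90.8 in introns. The exon density was above the intron density in 4 of 4 lists, by 1.19-fold to 1.48-fold. The mean log2 ratio of exon to intron was 0.42 ± 0.14 (SD, n = 4), and a two-sided exact sign-flip permutation test over the lists gave p = 0.13, the smallest that 4 lists allow.

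The CTD was denser than H3K36me2 in both places. It had 291, 255 and 236.5 exon peaks per Mbp without UV and 247, 234 and 303 at 3 h. The introns had 193 to 211 per Mbp in the 6 lists, a narrower range than the exons. The ratio was between 1.15-fold and 1.44-fold in favour of exons in 6 of 6 lists, with a mean log2 ratio of 0.36 ± 0.13 (SD, n = 6, two-sided exact sign-flip permutation test, p = 0.031, the smallest that 6 lists allow). Both lists that stood apart had the highest ratios, and without them the mean was 0.27 ± 0.05 (SD, n = 4, p = 0.13 in the same exact test, the smallest for 4 lists). With only the 5 to 27 exon peaks a list that had a −log10 p of at least 3, the mean was 0.28 ± 0.66 and the call was lost (n = 6, exact sign-flip permutation test, p = 0.344). The CTD and H3K36me2 ratios differed by −0.07 on the log2 scale, which an exact permutation test of 6 lists against 4 did not separate (two-sided, p = 0.433). Antibody, cell genotype and kind of control all differ between these lists and cannot be told apart.

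**Figure D1:**
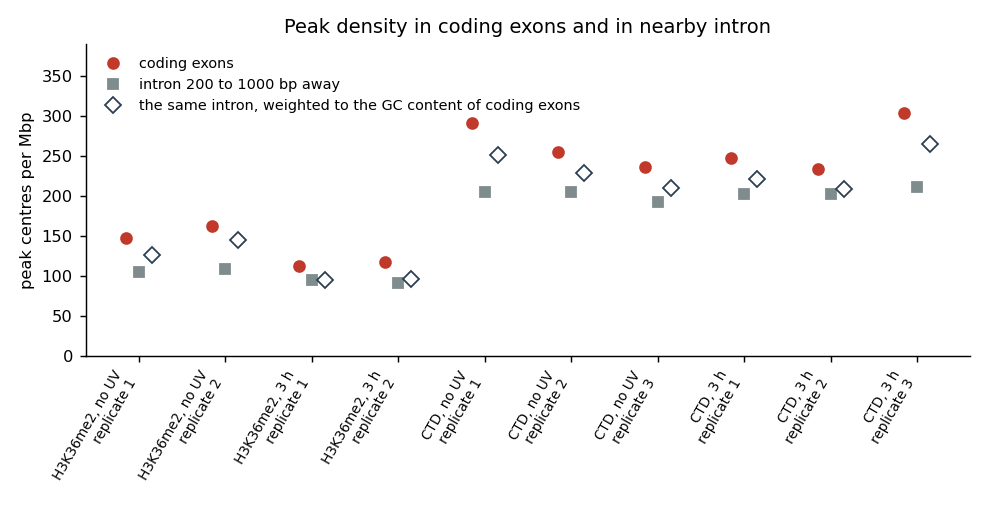
Peak centres per Mbp (y axis) in each of the 10 lists (x axis), for coding exons (circles), intron 200 to 1000 bp away (squares) and the same intron weighted to the GC content of coding exons (diamonds). The circles lie above the squares in every list (fold 1.15 to 1.48) and above the diamonds by less (1.11 to 1.23).

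Part of the difference went with GC content. When the intron density was taken in strata of 2 percentage points of GC in the 500 bp around each base and averaged with the weights of the coding bases, the H3K36me2 intron density became 126 and 144 per Mbp without UV and 95.1 and 95.8 at 3 h. The remaining exon excess was 1.18-fold and 1.12-fold without UV and 1.18-fold and 1.23-fold at 3 h, a mean log2 ratio of 0.23 ± 0.05 (SD, n = 4, exact sign-flip permutation test, p = 0.13). For the CTD it was between 1.11-fold and 1.16-fold in all 6 lists, a mean of 0.18 ± 0.02 (SD, n = 6, exact sign-flip permutation test, p = 0.031). Without the pair of lists that stood apart the CTD mean was 0.16 ± 0.01 (n = 4, exact p = 0.13). The SD between CTD lists was 0.13 before and 0.02 after weighting. The lists that stood apart still had the highest ratios after weighting, 0.22 and 0.20 on the log2 scale against 0.15 to 0.17 in the other 4.

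Both signals were sparsest in AT-rich sequence, in exons and introns alike. In sequence under 40% GC the H3K36me2 density without UV was 28.5 ± 0.00 per Mbp in exons and 29.3 ± 1.25 in introns (SD, n = 2), and at 3 h it was 35.4 ± 5.22 and 32.4 ± 1.94, so the exon and intron values lay within the spread of the replicates or close to it. Between 50% and 60% the exon and intron densities were 162 ± 10.4 and 127 ± 3.63 at 3 h, and 232 ± 14.4 and 193 ± 13.9 in unirradiated cells. The CTD was above its introns also under 40% GC, with 141 ± 35.2 against 113 ± 36.6 without UV and 137 ± 33.3 against 104 ± 26.2 at 3 h (SD, n = 3). In sequence of 60% GC or more the CTD densities were close together, at 317 ± 68.2 in exons and 296 ± 48.6 in introns without UV.

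**Figure D2:**
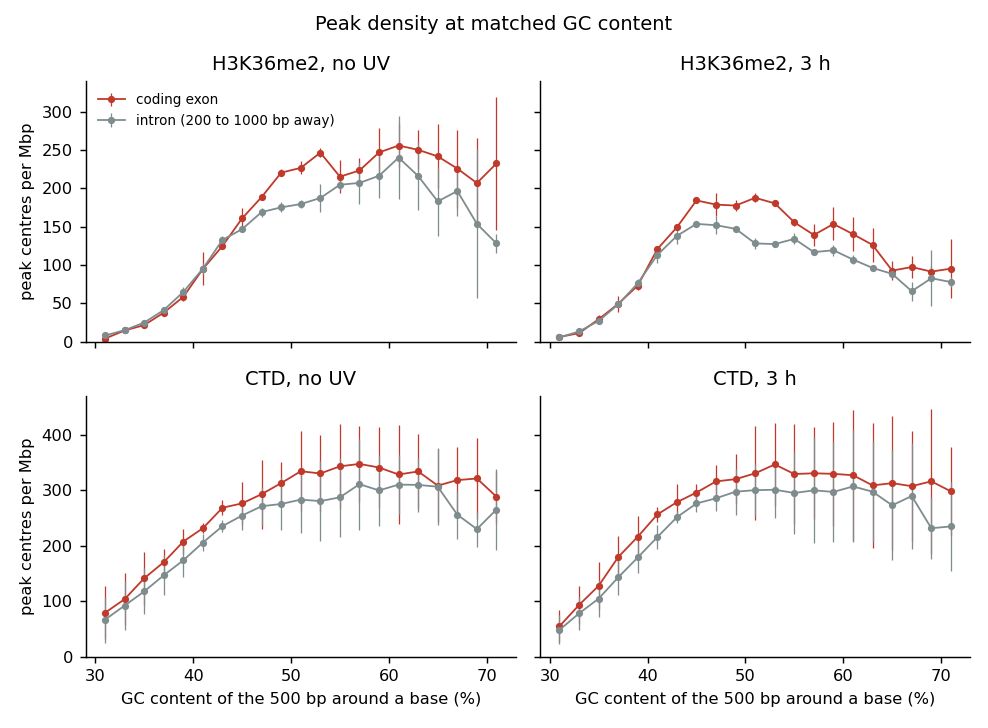
Peak centres per Mbp (y axis) against the GC content of the surrounding 500 bp in per cent (x axis) for coding exons and for intron 200 to 1000 bp away, as means ± SD over the 2 H3K36me2 or 3 CTD replicates of each condition. The H3K36me2 lines of exon and intron run close together under 40% GC, where both climb with GC content, and the H3K36me2 density above 60% GC is lower at 3 h than without UV in both places.

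The choice of intron changed the H3K36me2 comparison. In the 100 bp of intron beside coding segments H3K36me2 had 114 ± 6.82 per Mbp without UV and 87.5 ± 0.301 at 3 h. It was lowest a little further out, with 96.0 ± 1.96 without UV at 300 to 400 bp and 78 ± 1.54 at 3 h at 200 to 300 bp (SD, n = 2). It then climbed with distance, to 123 ± 2.29 and 110 ± 0.846 at 900 to 1000 bp and to 183 ± 3.13 and 175 ± 2.16 at 5 to 10 kb, above the 155 ± 10.1 and 115 ± 3.44 of the coding segments themselves. The CTD had 225 ± 16.9 per Mbp without UV in the 100 bp beside coding segments and 206 ± 7.03 at 900 to 1000 bp, and 193 ± 1.22 at 5 to 10 kb (SD, n = 3), against 261 ± 27.7 in coding segments. The GC content of these intron bins was 42.8% at 200 to 300 bp and 41.2% at 5 to 10 kb.

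Against intron 1 to 3 kb away, the H3K36me2 log2 ratio was 0.01 ± 0.17 (n = 4, exact sign-flip permutation test, p = 0.875). At equal GC content it was below zero in 4 of 4 lists, at −0.31 ± 0.03 (exact p = 0.13), and against intron 5 to 10 kb away it was −0.83 ± 0.05. The CTD log2 ratio against intron 1 to 3 kb away was 0.35 ± 0.15 (n = 6, exact p = 0.031), and 0.16 ± 0.01 at equal GC content. With this intron the antibodies did differ, by 0.35 (two-sided exact permutation test of 6 lists against 4, p = 0.00952), and by 0.46 at equal GC content (p = 0.00476 in the same exact test, the smallest it can give). The equal-GC version of this comparison was added after the profile by distance had been seen.

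Only long introns hold sequence far from a coding segment. The profile was also taken by the distance of each coding or intron base from the start of the gene of its nearest coding segment. This split does not hold intron length fixed. In each of the 5 classes H3K36me2 was denser in intron 5 to 10 kb away than in intron 200 to 500 bp away. In sequence over 100 kb from the gene start it went from 117 ± 0.662 per Mbp at 200 to 500 bp to 193 ± 1.3 at 5 to 10 kb without UV, next to 195 ± 2.45 in the coding segments (SD, n = 2). In sequence 5 to 20 kb from the gene start, coding segments had 142 ± 18.7 and intron 5 to 10 kb away from a segment 174 ± 4.95. The CTD density of the intron was between 177 and 224 per Mbp at every distance from 200 bp on in all 5 classes.

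**Figure D3:**
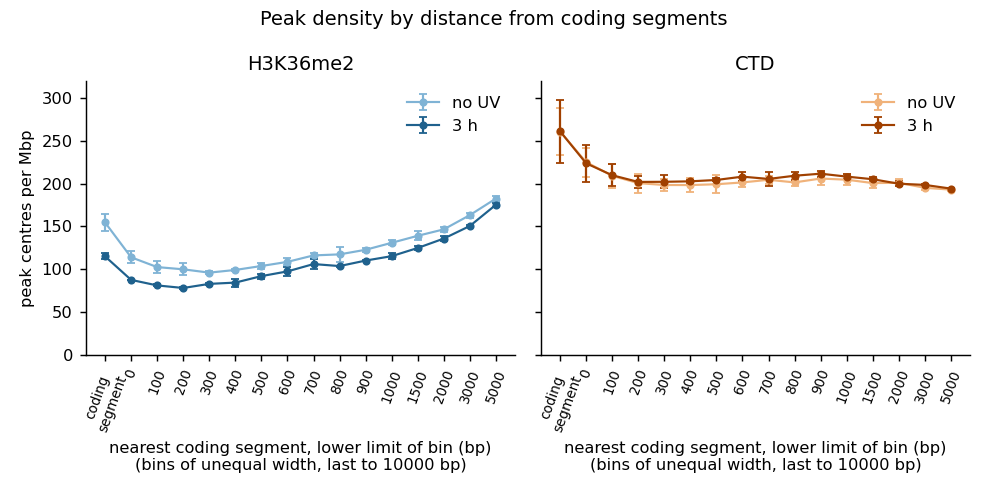
Peak centres per Mbp (y axis) in coding segments and in intron bins of growing distance from the nearest coding segment (x axis, bins of unequal width in bp), as means ± SD over replicates, without UV and at 3 h. H3K36me2 is low beside coding segments and higher in deep intron (183 per Mbp at 5 to 10 kb without UV), and the CTD has its highest value in coding segments (261 per Mbp).

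The H3K36me2 density also varied with exon length. Coding segments under 100 bp had 90.6 ± 4.68 H3K36me2 peaks per Mbp without UV, below the 111 ± 2.77 of the intron beside them, and 67.3 ± 3.06 against 97.6 ± 1.66 at 3 h (SD, n = 2). At 100 to under 200 bp, the class with the largest part of the coding sequence (12.6 Mbp), the values were 131 ± 9.80 against 104 ± 2.53 without UV. The density was 215 ± 6.47 in segments of 200 to under 500 bp and 248 ± 22.8 in those of 500 to under 1000 bp, against introns of 108 ± 5.11 and 99.7 ± 12. Segments of 1000 bp or more were lower again, at 146 ± 12.4. At equal GC content the log2 ratio without UV was −0.43 ± 0.03 under 100 bp, 0.10 ± 0.03 at 100 to under 200 bp, 0.61 ± 0.11 at 200 to under 500 bp, 0.67 ± 0.27 at 500 to under 1000 bp and −0.13 ± 0.05 from 1000 bp on, and at 3 h the last value was 0.36 ± 0.14.

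The CTD varied less with exon length. Segments under 100 bp had 222 ± 17.3 per Mbp without UV against 204 ± 4.95 in the intron, and those of 200 to under 500 bp had 300.3 ± 35.1 against 197 ± 9.23 (SD, n = 3). The log2 ratio at equal GC content ran from 0.07 ± 0.10 in segments of 1000 bp or more to 0.34 ± 0.13 at 200 to under 500 bp without UV. No test between the classes was made, since they share lists and genes.

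**Figure D4:**
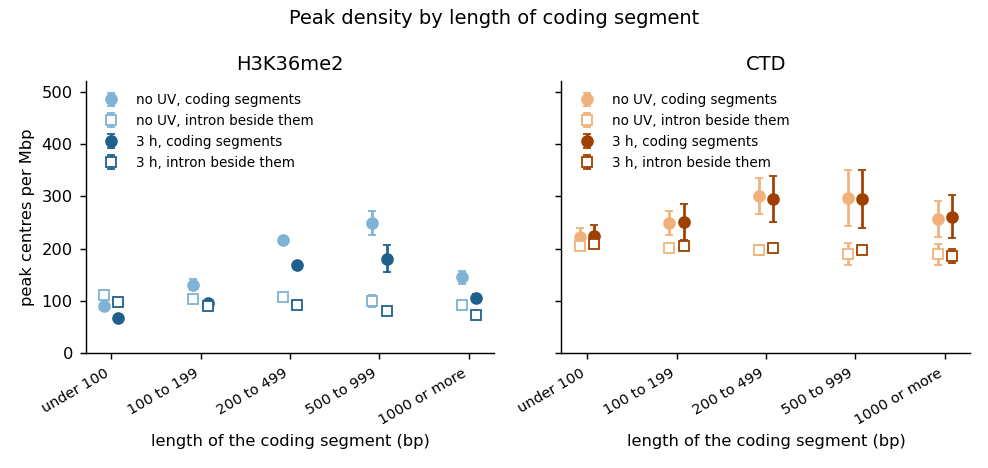
Peak centres per Mbp (y axis) in coding segments (filled circles) and in the intron beside them (open squares) by segment length in bp (x axis), as means ± SD over replicates. For H3K36me2 the segments under 100 bp lie below their intron (90.6 against 111 per Mbp without UV), and segments of 200 to under 1000 bp lie above it.

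The place of a segment in its coding sequence also went with the density. Genes whose coding sequence is a single segment had an H3K36me2 density of 255 ± 22.4 without UV and 203 ± 32.2 at 3 h. First segments had 219 ± 24.4 and 158 ± 9.31, last segments 168 ± 17.9 and 118 ± 1.21, and internal segments 140 ± 6.50 and 105 ± 1.71 (SD, n = 2). Without UV the intron beside single, first, last and internal segments had 108 ± 18.0, 129 ± 5.01, 108 ± 6.36 and 105 ± 2.82. The GC content in the 500 bp around their coding bases was 53.1%, 54.1%, 50.9% and 47.6%. At equal GC content the log2 ratio without UV was 0.46 ± 0.09 for first, 0.21 ± 0.05 for last and 0.12 ± 0.09 for internal segments. For the CTD all 4 kinds lay between 256 and 287 per Mbp without UV. With distance from the gene start the H3K36me2 exon density without UV went from 218 ± 19.4 at 1 to 5 kb down to 119 ± 7.83 at 20 to 50 kb, and was 195 ± 2.45 beyond 100 kb. The intron beside these segments had 118 ± 8.47, 93.4 ± 4.02 and 128 ± 1.97, so it fell and rose as well. At equal GC content the log2 ratios were 0.433 ± 0.002, 0.07 ± 0.10 and 0.26 ± 0.09.

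Among the peaks kept, the strength of exon peaks was close to that of intron peaks. Their median fold enrichment, the ratio of ChIP to control that the peak caller gave, was between 1.77 and 1.85 in the H3K36me2 lists and between 1.72 and 1.81 in the CTD lists. The difference from intron peaks was −0.006 ± 0.014 for H3K36me2 (n = 4, exact sign-flip permutation test, p = 0.5) and −0.001 ± 0.005 for the CTD (n = 6, exact p = 0.594). With intron peaks weighted to the GC content of exon peaks the sign turned, to 0.0147 ± 0.0041 for H3K36me2 (n = 4, exact p = 0.13, the smallest for 4 lists) and 0.0042 ± 0.0026 for the CTD (n = 6, exact p = 0.031), differences that are small beside medians near 1.8. Median widths of exon peaks were 493 to 605 bp and 432 to 576 bp, against 509 to 584 bp and 430 to 542 bp in intron, so a typical peak was longer than the median coding segment of 125 bp and reached into the introns on its sides. A −log10 p of at least 3 was reached by 7.23% to 8.68% of H3K36me2 exon peaks and by at most 0.300% of CTD exon peaks. The median −log10 p was 1.45 to 1.56 in CTD exon peaks and 1.44 to 1.55 in CTD intron peaks, beside list minima of 1.22 to 1.35. Since weaker peaks were cut off, medians this near the cut say little about how strong the signal was in exons and introns.

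Peaks were called robust if any other replicate in their condition had a peak sharing at least 1 bp with them. Between 58.1% and 65.1% of H3K36me2 exon peaks were robust, against 58.0% to 61.2% of intron peaks, a difference of 1.63 ± 2.69 percentage points (n = 4, exact sign-flip permutation test, p = 0.375). When an overlap of at least 50% of the peak was asked for, the difference was 4.76 ± 2.75 (exact p = 0.13, the smallest for 4 lists). For the CTD the shares were 54.4% to 62.0% and 48.4% to 56.5%, and exon peaks recurred more often in 6 of 6 lists, by 4.69 ± 2.41 percentage points (n = 6, exact p = 0.031). Without the lists that stood apart it was 6.15 ± 1.01 (n = 4, exact p = 0.13, the smallest for 4 lists). The CTD peaks covered 12.9% to 22.2% of coding bases and 10.7% to 15.1% of intron bases. The part of this coverage in the recurrence was not tested. When intron peaks were weighted to the GC content of exon peaks the CTD difference was 0.157 ± 0.942 percentage points (exact p = 0.719), and the H3K36me2 difference was −0.507 ± 3.07.

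The second question was whether exon occupancy was different 3 h after UV. There were 96.0 and 99.6 robust H3K36me2 exon peaks per Mbp in the unirradiated lists and 68.3 and 68.2 in those of 3 h. The lists of the 2 conditions did not overlap, and the log2 difference was −0.52 (2 against 2, exact permutation test, p = 0.33, the smallest possible). Relative to the flanking introns the difference was −0.29. For the exon to intron ratio of all peaks the difference between 3 h and no UV was −0.22 (exact permutation test, p = 0.33), and at equal GC content it was 0.07 (exact p = 0.33), of the opposite sign.

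The GC classes show where the H3K36me2 lists of the conditions parted. Coding sequence of 60% GC or more held 240 ± 42.6 peaks per Mbp in unirradiated cells and 113 ± 18.2 at 3 h, and in intron of the same GC content it was 208 ± 47.4 and 93.2 ± 7.58 (SD, n = 2). In coding sequence of 40% to 50% GC it was 154 ± 8.70 and 160.0 ± 5.31. The median GC content around exon peaks was 50.6% and 52.0% at 3 h, and 54.4% and 56.2% in unirradiated cells. The part of library composition in this difference was not tested.

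For the CTD the robust exon densities were 158, 147 and 132 per Mbp without UV and 153, 141 and 176 at 3 h. The groups overlapped, the log2 difference was 0.10 (3 against 3, exact permutation test, p = 0.5). Over all peaks of each list it was −0.0018, and relative to the flanking introns it was −0.06. It was 0.23 for robust peaks with a −log10 p of at least 2 (exact p = 0.5) and 0.18 when at least 50% of the peak had to be overlapped, where the conditions did not overlap (exact p = 0.1, the smallest for 3 against 3). Without the lists that stood apart it was 0.08 (2 against 2, exact p = 0.667). The exon to intron ratio differed by −0.03 between the conditions (exact permutation test, p = 0.7), and by −0.0074 at equal GC content. The sign and size of the CTD difference thus varied with the way peaks were counted, and no setting could pass the threshold in this design.

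Recurrence was looked at segment by segment. Of 173250 eligible coding segments, 11338 (6.54%) had an H3K36me2 exon peak in at least 1 list and 34420 (19.9%) a CTD exon peak. Both were found on 4800 segments, which is 42.3% of those with H3K36me2 and 13.9% of those with the CTD. In all 4 H3K36me2 lists an exon peak was found on 360 segments of 339 genes (0.208% of the eligible segments), and in all 6 CTD lists on 83 segments of 83 genes (0.0479%). Long segments can hold more peaks, and the median length was 1179 bp for these 360 and 3636 bp for these 83, against 125 bp for all. Among 130836 segments with a partner intron window of their own length, 73 (0.0558%) had a centre in every H3K36me2 list, against 18 windows (0.0138%). For the CTD both counts were 0 (0.0%). Segments with a peak were richer in GC, with a median of 56.2% for H3K36me2 and 54.2% for the CTD against 50% for all, and held 3.65 and 3.39 CpG dinucleotides per 100 bp against 3.03.

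Among the segments with H3K36me2 in all 4 lists, those ranked first by their weakest fold enrichment belonged to genes of diverse function. ZBED2, a zinc-finger transcription factor with a single coding segment of 654 bp (chr3:111593548-111594201), had fold enrichments of 2.59 and 2.60 without UV and 3.32 and 2.84 at 3 h. BEST3, a bestrophin anion channel (chr12:69654910-69655813), had 2.62 and 2.44 without UV and 2.38 and 2.75 at 3 h. TPRX2, a homeobox gene of the early embryo (chr19:47860802-47861509), had 3.41 and 2.42, and 2.40 and 2.38. These 3 segments had a CTD peak centre in 0, 2 and 0 of the 6 lists.

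The olfactory receptor OR4N2 (chr14:19827449-19828369), whose sequence is shown above, had 2.34 and 2.81 without UV and 3.15 and 2.79 at 3 h. EEPD1 (chr7:36154325-36155202) had 2.95 and 3.21, and 2.27 and 2.64. UROC1, the only one of the 8 under 500 bp with its 94 bp, had 2.71 and 2.91, and 2.56 and 2.25. CCDC80, a protein of the extracellular matrix (chr3:112638028-112639905), had 2.78 and 3.16, and 2.23 and 2.70, and SYNPO2, an actin-binding protein (chr4:119026627-119027438), had 2.18 and 2.17, and 2.68 and 2.46. In 7 of the 8 the coding segment was richer in GC than its flanking intron, for example 58.6% against 30.7% in ZBED2, and TPRX2 was the exception with 64.4% against 79.7%.

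The CTD segments with peaks in all 6 lists were long ones, and long segments can hold more peaks. AHNAK, a very large scaffold protein, has a coding segment of 17328 bp (chr11:62516747-62534074) that held 3 to 8 CTD peak centres a list, with highest fold enrichments of 1.99, 2.40 and 1.91 without UV and 2.24, 1.92 and 1.99 at 3 h, and no H3K36me2 peak centre in any list. SON (chr21:33549476-33555391) had 1.88, 1.87 and 1.93, and 2.02, 2.08 and 1.94. MUC16, the mucin that carries the antigen CA125 (chr19:8945497-8967189), had 1.86, 1.85 and 2.01, and 1.94, 2.19 and 1.90. The segments of ZNF469, YLPM1, ZNF407 and ZFHX2, most of them zinc finger genes, had values between 1.78 and 2.30.

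RAG1 (chr11:36573305-36576433) was the one segment of these 8 with peaks of both antibodies in every list. Its H3K36me2 fold enrichments were 2.38 and 2.41 without UV and 2.55 and 2.01 at 3 h. Its CTD values were 1.78, 1.83 and 1.97, and 1.89, 1.95 and 1.83.

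The 8 longest eligible segments, chosen by length alone, showed the antibodies side by side. Over all eligible segments 0.0479% had a CTD exon peak in all 6 lists and 0.208% an H3K36me2 exon peak in all 4. At the all-gene CTD exon density of 261 per Mbp, segments this long can hold several peak centres in each list. Peaks in every list are thus no sign of a CTD density above that of all genes. MUC16, AHNAK, AHNAK2 (chr14:104938066-104954799), TTN (chr2:178559311-178576416), C2orf16 (chr2:27566735-27582524) and MUC12 (chr7:100990631-101005519) had CTD peaks in 6 of 6 lists, EPPK1 in 5 and CCDC168 in 2. H3K36me2 was present in 4 of 4 lists on the segment of TTN, the giant protein of the sarcomere, with 1.86 and 1.97 without UV and 1.98 and 1.97 at 3 h. An H3K36me2 peak centre lay on C2orf16 and on the mucin MUC12 in 3 lists, and on the other 5 in none. On C2orf16 a peak overlapped the segment in all 4 lists. CCDC168, at 38.2% GC, was the poorest in GC of the 8.

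Segments occupied in one condition only were counted strictly, with an exon peak in every replicate of one condition and no overlapping peak in any replicate of the other. For H3K36me2, 356 segments (0.205%) were seen only without UV and 108 (0.0623%) only at 3 h. Among segments with a partner window, 157 (0.12%) against 53 windows (0.0405%) were seen only without UV, and 77 (0.0589%) against 43 (0.0329%) only at 3 h. For the CTD, 39 segments (0.0225%) were seen only without UV and 33 (0.019%) only at 3 h, and with partner windows these were 14 (0.0107%) against 2 (0.00153%) and 14 (0.0107%) against 14 (0.0107%). The segments with a partner had a median GC content of 47.9% and the windows 43.1%. These counts have no test, and a list cut at a fixed number of peaks can lose a peak that lies just below the limit.

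The leading H3K36me2 segments of the condition without UV were in COL6A6, a collagen VI chain, with fold enrichments of 2.35 and 3.01, in TECTA, a protein of the tectorial membrane, with 2.53 and 2.28, in MS4A8, a membrane-spanning protein, with 2.25 and 2.22, and in KSR2, a scaffold of the Ras pathway, with 2.62 and 2.21. At 3 h they were in SERPINB4, a protease inhibitor, with 2.73 and 2.35, in ST8SIA1, the GD3 ganglioside synthase, with 2.29 and 2.48, in LHFPL6 with 2.2 and 2.17, and in ADH7 with 2.54 and 2.13. The GC content of the first 4 was 48.6% to 67.9%, and that of the other 4 was 45.3% to 56.9%.

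The leading CTD segments seen only at 3 h were in TTN, in a segment (chr2:178775356-178777049) other than the longest one, with 2.01, 1.93 and 2.0, in DMXL1 with 1.93, 1.83 and 1.98, in HSPH1, a heat-shock protein, with 2.21, 1.81 and 1.79, and in FBXO42, an F-box protein, with 1.78, 2.09 and 1.88. Without UV they were in SMIM28 with 2.0, 1.96 and 2.13, in OR51B5, an olfactory receptor, with 1.89, 2.0 and 2.02, in RPUSD2 with 1.98, 1.82 and 1.91, and in MAML3, a coactivator of Notch, with 1.78, 1.80 and 1.89. SMIM28 and MAML3 had an H3K36me2 peak in 4 of 4 lists.

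Gene families spanned a wider range in H3K36me2 than in the CTD. All genes together had 135 ± 23.7 H3K36me2 exon peaks per Mbp (SD, n = 4 lists) and 261 ± 29.3 CTD exon peaks per Mbp (n = 6). Family densities were not weighted by GC content. Olfactory receptors, whose coding sequence is mostly one exon, had the highest H3K36me2 density, at 418 ± 30.4 in exons and 105 ± 49.5 in the intron nearby. Their GC content was 47.4% in coding sequence and 36.6% in that intron. An H3K36me2 exon peak was found on 135 of their 235 genes, against 5932 of 17986 for all genes. Keratins of the cytoskeleton had 328 ± 32.2 against 199.1 ± 19.0, HOX genes 322 ± 122 against 305 ± 61.4, protocadherins of cell adhesion 308 ± 101 against 131 ± 21.9, and collagens 276 ± 17.5 against 167 ± 12. The GC content of coding sequence and intron was 57.2% and 46.1% in keratins and 59.8% and 53.4% in HOX genes. It was 55.1% and 35.9% in protocadherins and 58.1% and 42.9% in collagens. The part of GC content in these gaps was not tested. In every list the olfactory receptor, keratin, collagen and protocadherin densities lay above the highest value of all genes (162). The laminin, ABC transporter, dynein heavy chain and solute carrier densities did so too, the last only just (lowest 162.1 against 161.75). The lowest HOX density was 155.

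Laminins of the basement membrane had 217 ± 25.2, ABC transporters 214 ± 41.5, solute carriers 190 ± 42.9 and dynein heavy chains 181 ± 22.3 H3K36me2 exon peaks per Mbp. Myosin heavy chains had 104 ± 15.7, ribosomal protein genes 63.1 ± 17.2, mucins 52.2 ± 11.4 and zinc finger genes 40.4 ± 19.6. In zinc finger genes the intron nearby was low as well, at 52.8 ± 10.3. The CTD exon density of all 13 families lay between 221 and 344 per Mbp, with 243 ± 29.1 in zinc finger genes and 278 ± 37.7 in olfactory receptors.

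The genes listed for nucleotide excision repair and for H3K36 and H3K4 methylation had few H3K36me2 peaks on their coding exons. The nucleotide excision repair list, of which 24 of 26 genes had eligible segments (0.0451 Mbp of coding sequence), had 2 H3K36me2 exon peaks in the 4 lists together, 1 in ERCC2 and 1 in GTF2H3, both without UV. That is 11.1 ± 22.2 per Mbp. Its CTD density was 247 ± 90.2, with 67 peaks on 19 of 24 genes, against 13298 of 17986 for all genes. The list of H3K36 and H3K4 methylation, which holds writers such as SETD2 and NSD1, erasers and readers, had 6 H3K36me2 exon peaks (11.9 ± 10.3 per Mbp). These were on 5 of 25 genes, against 5932 of 17986 for all genes. It had 193 CTD exon peaks on 22 of 25 genes (256 ± 69.6 per Mbp, against 261 ± 29.3 for all genes). KMT2D, with 16.3 kb of coding sequence, had 2 to 9 a list. The introns of the repair and methylation lists were low in H3K36me2 too, at 19.0 ± 12.3 and 28.6 ± 7.18 per Mbp.

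The histone chaperone FACT and the TFIIH kinase, 5 genes with 0.00775 Mbp of coding sequence, had 1 H3K36me2 and 3 CTD exon peaks, too few to compare. The osteoblast matrix list, whose genes are known from bone-forming cells, had 295 ± 65.6 H3K36me2 exon peaks per Mbp against 86.2 ± 10.6 in the intron nearby. The GC content of this list was 52.9% in coding sequence and 40.3% in that intron. Its 44 peaks were on 6 of 9 genes, against 5932 of 17986 for all genes. VCAN, a matrix proteoglycan, had 3 and 4 without UV and 4 and 6 at 3 h, and COL1A2, a collagen I chain, 2 and 2, and 3 and 5. These 2 genes held most of the 44 peaks. ALPL and RUNX2 had peaks in every list, FN1 and TNC had 1 each, and COL1A1, SPARC and SPP1 had none. The CTD density of this list was 295 ± 95.9.

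**Figure D5:**
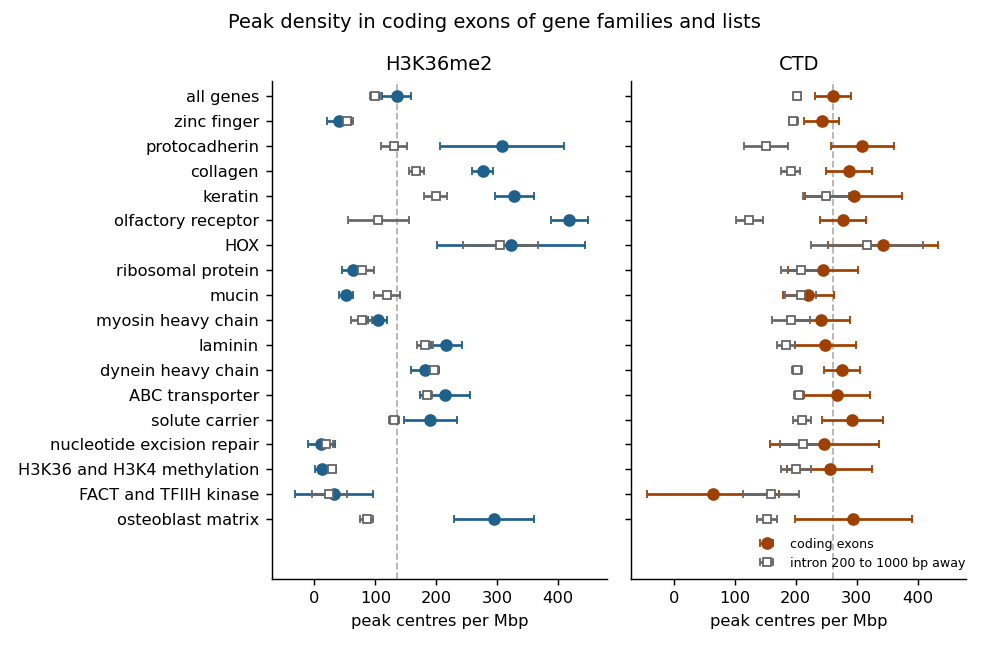
Peak centres per Mbp (x axis) in coding exons (filled circles) and in intron 200 to 1000 bp away (open squares) for all genes, 13 gene families and 4 gene lists, as means ± SD over the 4 H3K36me2 or 6 CTD lists, with the all-gene exon density as a dashed line. H3K36me2 runs from 11.1 per Mbp in nucleotide excision repair genes to 418 in olfactory receptors, while the CTD stays between 221 and 344 except in the short FACT and TFIIH list. The densities are not weighted by GC content.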

How the data were processed

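ChIP-seq peak lists of U2OS cells were used, 4 for H3K36me2 and 6 for the Flag-tagged CTD. The authors aligned reads to hg38 without chromosome Y, kept mapping qualities of at least 30, took out duplicate reads and the blacklist, and ran MACS2 in broad mode at a p-value limit of 0.01, H3K36me2 over input and the CTD over empty-vector ChIP. Most exon peaks have deposited −log10 p values below 2, the value of this limit, and the reason was not tested. The submitters' processing notes name BWA 0.7.17-r1188, MACS2 2.2.7.1, SAMtools 1.7, Trim Galore 0.6.5, bedtools 2.29.2 and Picard. The deposited fold enrichment is a linear ratio of ChIP to control, and the deposited −log10 p and −log10 q values are those of the peak caller. Signal tracks were not used here, and the depth of the libraries is unknown from the lists.

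Coding segments, gene starts and introns came from GENCODE release 44 on hg38. Peak centres were counted per Mbp with Python 3.11.15, numpy 2.4.6 and pandas 2.3.3, and plotted with matplotlib 3.10.9. For equal GC content, intron densities in strata of 2 percentage points of GC in 500 bp were averaged with the weights of the coding bases. Two-sided exact sign-flip permutation tests over lists (smallest p = 0.13 for 4 and 0.031 for 6) compared exon and intron, and exact permutation tests compared groups (smallest p = 0.33 for 2 against 2, 0.1 for 3 against 3 and 0.00476 for 6 against 4). The GC weighting, the permutation tests and the overlap of peaks were tested on simulated data. The assignment of peak centres to coding segments and introns was not. The members and gene lists were chosen with earlier results of these data known. Named segments were the 8 outside chromosome 8 with H3K36me2 in all 4 lists and the 8 with the CTD in the most lists by their weakest fold enrichment, the 8 longest, and the 4 leading segments of each antibody and direction seen in one condition only. Families were taken by gene symbol. Some sequences are not reported here.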

Additional observations from a re-analysis of the deposited data

How the results depend on the processing

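The exon to intron log2 ratio of the CTD was above zero under all 18 alternatives (0.16 to 0.48), but it missed the threshold with peaks of −log10 p of 3 or more (0.28, exact p = 0.344) and without the lists that stood apart (0.27, and 0.16 at equal GC content, exact p = 0.13 for both, the smallest for 4 lists). That of H3K36me2 was above zero under 16 of 17 and was −0.31 against intron 1 to 3 kb away at equal GC content. The difference between the antibodies was −0.07 and became 0.016 with robust peaks, 0.031 with segments that have an intron on both sides (0.048 at equal GC content), 0.35 against intron 1 to 3 kb away and 0.46 against that intron at equal GC content. It passed the threshold at −0.20 against intron 200 to 500 bp away (exact permutation p = 0.0381) and at −0.060 with robust peaks at equal GC content (exact permutation p = 0.0190). The settings that join GC weighting with another choice, the GC weighting of recurrence, and the settings without the lists that stood apart were chosen after seeing the data. The cause of these shifts was not tested.

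The UV difference of the H3K36me2 ratio was −0.22 and turned to 0.071 at equal GC content, and there to 0.031 with robust peaks, 0.037 with −log10 p of 2 or more, 0.072 with segments that have an intron on both sides and 0.070 with segments under 500 bp. That of the CTD turned to 0.15 with −log10 p of 3 or more and to 0.0043 against intron 1 to 3 kb away at equal GC content. The UV difference of robust CTD exon density was 0.10, and it was −0.0018 over all peaks, −0.061 relative to introns, 0.18 with at least 50% of the peak overlapped and 0.23 with −log10 p of 2 or more. With GC-weighted intron peaks, the fold enrichment differences were 0.0147 for H3K36me2 and 0.0042 for the CTD (exact p = 0.031), and the recurrence differences −0.507 and 0.157 percentage points. Without the lists that stood apart the CTD recurrence difference was 6.15 (exact p = 0.13).

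Leaving out 1 list at a time gave CTD ratios of 0.32 to 0.38 (exact p = 0.0625, the smallest for 5 lists), H3K36me2 ratios of 0.37 to 0.48, differences between them of −0.12 to −0.02, UV differences of the ratio of −0.28 to −0.16 for H3K36me2 and −0.13 to 0.034 for the CTD, UV differences of robust density of −0.55 to −0.49 and 0.02 to 0.18, recurrence differences of 0.880 to 2.93 and 4.15 to 5.32 percentage points, and fold enrichment differences of −0.0110 to −0.00057 and −0.0026 to 0.00048. With the replicate number as a block the UV differences were −0.22 (exact p = 0.5) and −0.03 (exact p = 1) for the ratio and −0.52 (exact p = 0.5) and 0.10 (exact p = 1) for robust density, and no call changed. The deviations of lists from the means of their own conditions were correlated between conditions over 2740 bins of 1 Mb. For same-numbered lists the values were 0.0926 for H3K36me2 and −0.424, −0.0749 and −0.751 for the CTD. Deviations cancel out within a condition, so these values depend on one another, and those of H3K36me2 differ only in sign. They cannot settle whether the numbers pair the lists. Between CTD lists of different numbers the highest value was 0.749, for replicate 1 without UV with replicate 3 at 3 h. Replicate 3 without UV gave 0.585 and 0.409 with replicates 2 and 1 at 3 h, values that are not independent of the first. A shared batch or exchanged labels were not tested, and the UV differences of the CTD rest on the labels as given. A −log10 q limit of 1.3 left no CTD value, and masking of repeats was not run because the reference used here has no repeat marks.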
